A study of Homo sapiens with 2 samples.

Results

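DNA methylation was examined at the 9 Wnt antagonist genes SFRP1, SFRP2, SFRP4, SFRP5, DKK1, DKK2, DKK3, WIF1 and SOX17, out of 20163 annotated protein-coding genes. The 9 genes were chosen by name and not by their values, but with earlier results of these data known. Their members in the data were the CpG dinucleotides of each gene and of the 2 kb on either side of its transcription start site (TSS), 5990 of the 28217448 listed. Of these, 5257 had more than 5 reads in both libraries and were tested, out of 24454751 on nuclear chromosomes. The material was 2 established human acute myeloid leukemia (AML) cell lines, OCI-AML3, which carries the R882C mutation of the DNA methyltransferase gene DNMT3A on a single allele, and AML5, recorded as OCI-AML5 in the sample labels, which is wild type for DNMT3A. Both lines were grown in DMEM with fetal bovine serum and no treatment was labelled. Each line was represented by 1 whole-genome bisulfite library, so every difference below is a difference between 2 libraries of unrelated lines, and DNMT3A genotype cannot be told apart from any other difference between the lines. In this assay bisulfite turns unmethylated cytosine into uracil, and the share of reads that still show a cytosine is the methylation level of the site.

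Wnt proteins are secreted ligands that bind Frizzled receptors and the co-receptors LRP5 and LRP6, after which β-catenin is stabilised and acts with TCF factors on transcription. The secreted Frizzled-related proteins (SFRPs) and WIF1 bind Wnt ligands outside the cell. Of the Dickkopf proteins (DKKs), DKK1 and DKK2 bind LRP5 and LRP6. SOX17 is a transcription factor that counteracts β-catenin and TCF. Promoter CpG islands of these genes are well known sites of aberrant methylation in leukemia and other cancers, where a methylated island usually goes with a silent gene. The present data measured methylation only, and transcription of the 9 genes was not analysed here.

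The 300 bases just upstream of the TSS show how finely the differences were laid out. They are printed for SFRP2 and SFRP5, which each hold calls in both directions within the 300 bases. WIF1, which is not printed, also held both there, with 3 lower and 5 higher. SFRP4 was chosen after its values were seen, because no CpG differed. Capitals mark the CpG dinucleotides whose calls differed between the libraries, base 1 is the 5′ end and base 300 is next to the TSS. SFRP2 lies on the minus strand at chr4:154710236-154710535, SFRP5 on the minus strand at chr10:99531757-99532056, and SFRP4 on the minus strand at chr7:37956420-37956719, all read from GRCh37.
SFRP2: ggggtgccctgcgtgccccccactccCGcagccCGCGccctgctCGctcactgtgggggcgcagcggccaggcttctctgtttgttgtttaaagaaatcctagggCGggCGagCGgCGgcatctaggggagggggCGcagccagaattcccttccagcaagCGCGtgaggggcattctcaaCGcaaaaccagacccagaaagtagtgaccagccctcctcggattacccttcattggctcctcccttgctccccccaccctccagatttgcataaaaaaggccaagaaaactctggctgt
SFRP5: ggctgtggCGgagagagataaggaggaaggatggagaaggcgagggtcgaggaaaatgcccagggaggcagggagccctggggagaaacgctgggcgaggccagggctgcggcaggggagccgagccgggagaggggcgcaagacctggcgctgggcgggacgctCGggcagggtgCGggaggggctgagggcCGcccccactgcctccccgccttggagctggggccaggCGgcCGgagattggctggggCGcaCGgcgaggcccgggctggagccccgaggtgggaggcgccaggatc
SFRP4: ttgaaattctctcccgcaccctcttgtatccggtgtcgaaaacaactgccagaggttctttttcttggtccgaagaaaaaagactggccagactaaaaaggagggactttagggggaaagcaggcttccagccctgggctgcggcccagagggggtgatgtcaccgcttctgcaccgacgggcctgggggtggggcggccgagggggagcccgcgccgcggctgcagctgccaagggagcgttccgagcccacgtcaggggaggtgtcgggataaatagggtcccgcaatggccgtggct
In SFRP2, 4 CpG dinucleotides between bases 27 and 45 were more methylated in OCI-AML3, at 59.3 to 93.2% against 12.5 to 48.0% in AML5. The next 2, at bases 60 and 65, did not differ, with 11.9% and 14.0% in OCI-AML3 and 16.7% and 4.0% in AML5, the last from 1 methylated call of 25. The following 8, between bases 106 and 182, went the other way, with 0 to 2.94% in OCI-AML3, at most 1 methylated call each, and 38.1 to 68.4% in AML5. In SFRP5, 7 CpG dinucleotides between bases 166 and 256 reached 29.5 to 96.3% in OCI-AML3 against 5.26 to 41.2% in AML5, whereas the CpG at base 9 was lower, at 53.5% against 94.1%. The 20 CpG dinucleotides of the SFRP4 sequence averaged 0.354% in OCI-AML3 and 0.337% in AML5, and none was called.

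Summed over the genome, OCI-AML3 had 902802339 calls and AML5 had 894828667, with a median of 27 and 30 calls per CpG. With 3 calls as the smallest number taken as detected, a level below 11.1% in OCI-AML3 or 10.0% in AML5 at a single CpG of median depth, such as the lowest ones given above, cannot be told from 0. The genome-wide mean was lower for OCI-AML3 (67.6%) than for AML5 (75.4%), by -7.77 percentage points. Chromosome 8, which carries SFRP1 and SOX17, had 46.9 and 48.9 calls per CpG, more than any other autosome in either library. Promoter CpG dinucleotides of the 9 genes had 58.3 calls for OCI-AML3 and 40.1 for AML5, and the part of that unequal depth in the calls was not tested. Intervals and tests cover the counting of reads only, and take every call as independent although 1 read can give several. As a check of the labelled cell type, the promoters of 5 myeloid blood genes were split. PTPRC (6.64% in OCI-AML3 and 7.98% in AML5) and SPI1 (11.5% in each) were low and CD33 was intermediate (35.1% and 30.7%), whereas LYZ (75.5% and 71.2%) and MPO (93.2% and 90.3%) were high. The 5 lymphoid promoters ranged from 69.5 to 90.5% in OCI-AML3 and 69.6 to 92.1% in AML5, and the 5 epithelial ones from 43.8 to 84.5% and 55.3 to 84.3%, so promoter methylation alone did not separate the 3 lists.

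Promoters were taken as 2 kb on either side of the TSS, first at the most upstream annotated TSS of each gene. In those windows 1 of the 8 members with at least 10 tested CpG dinucleotides, SFRP1, was lower in OCI-AML3 by over 20 points, and 0 were higher. Among all 19667 promoters 8.61% were lower by that margin and 1.79% higher, and among the 12343 with at least 100 CpG dinucleotides 4.88% were lower and 2.02% higher. For 6 members the most upstream TSS is also that of the canonical transcript. In SFRP4 and DKK2 it lies 108878 and 247493 bp away, in DKK3 1143 bp away. The SFRP4 window at the most upstream TSS held 14 tested CpG dinucleotides that averaged 94.4% and 97.0%, and the DKK2 window held 8, at 58.6% and 86.8%. The account below therefore uses the canonical TSS, where 1 of 9 members was lower by over 20 points and 0 were higher, beside 8.72% and 1.81% of all 19671 promoters.

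At the canonical TSS the 9 promoters had 1515 tested CpG dinucleotides with a mean of 32.2% for OCI-AML3 and 35% for AML5. Mean levels were lower in OCI-AML3 for SFRP1, SFRP2, DKK2 and WIF1 and higher for SFRP4, SFRP5, DKK1, DKK3 and SOX17. The median of the 9 differences was 1.72 points, against -2.56 points in the windows at the most upstream TSS. Over all promoters at the canonical TSS it was -4.63 points, and 84.5% of all promoters were lower in OCI-AML3. In OCI-AML3 the order from the lowest level was DKK2, SFRP4, SFRP1, DKK1, SFRP2, SFRP5, SOX17, WIF1 and DKK3. In AML5 it was SFRP4, DKK2, DKK1, SFRP5, SOX17, SFRP2, DKK3, SFRP1 and WIF1. With 1 library per line, the spread between cultures is unknown and neighbours in either order cannot be separated. SFRP1 held the seventh place from the top in OCI-AML3 and the second in AML5.

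**Figure D1:**
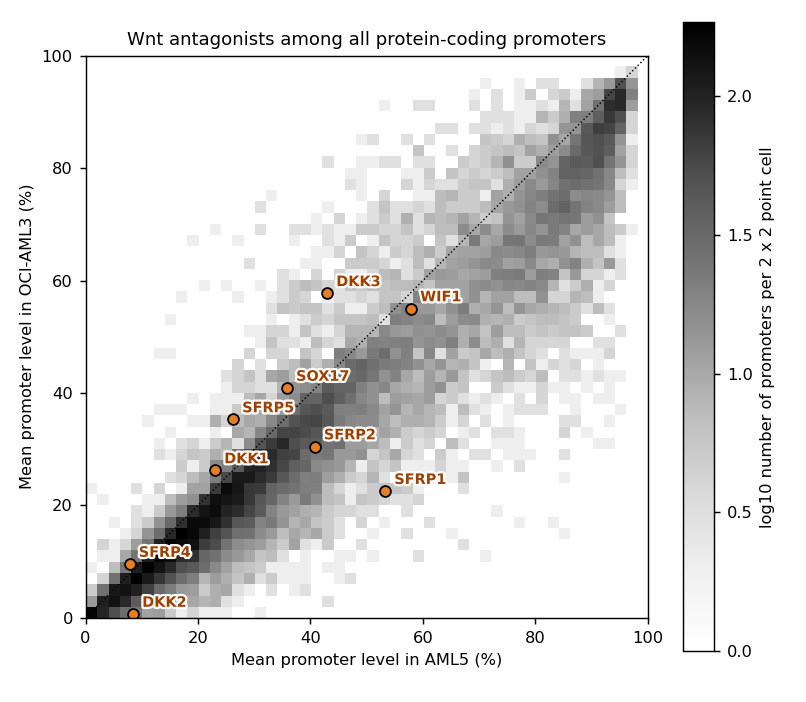
Mean promoter level (%) in AML5 on the x axis and OCI-AML3 on the y axis for 19671 protein-coding promoters at the canonical TSS, shown as the log10 number of promoters per cell of the grid, with the 9 Wnt antagonists as labelled circles. SFRP1 lies far below the dotted line of equal levels and DKK3 above it.

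SFRP1 showed the largest promoter difference of the 9. The gene lies on the minus strand at chr8:41119481-41166992 and encodes a secreted protein that binds Wnt through its Frizzled-like domain. Its promoter averaged 22.5% ± 22.8 (SD over 221 CpG dinucleotides) in OCI-AML3 against 53.3% ± 25.2 in AML5. Of all calls in the window, 23.4% were methylated in OCI-AML3 (Wilson 95% interval 22.7 to 24%) and 55.5% in AML5 (54.6 to 56.3%). Each CpG was tested on its own by a two-sided Fisher's exact test and called where the Benjamini-Hochberg adjusted P over all CpG dinucleotides was below 0.05. By that rule 151 of the 221 were lower in OCI-AML3 and 5 higher. Within 500 bp of the TSS the means were 8.11% and 53.1%, with 95 of 107 called lower and 0 higher. Within 200 bp they were 1.43% and 52.0%, with 54 of 56 called lower. A single stretch of 71 consecutive CpG dinucleotides all called lower ran from -128 to 326 bp of the TSS (chr8:41166666-41167120), across the TSS and into exon 1, at 4.83% in OCI-AML3 and 57.2% in AML5. A further pair of stretches of 15 CpG dinucleotides followed, in exon 1 (chr8:41166531-41166631; 8.30% and 60.8%) and in intron 1 (chr8:41165882-41166012; 45.0% and 89.1%). Exon 1 as a whole stood at 17.2% and 57.0%. Among CpG-rich promoters at the canonical TSS, 1.87% had a more negative difference. Profiles over 16 bins of 250 bp in both libraries were compared among promoters with all 16 bins filled. Those most like SFRP1 were SP8 and HS3ST4, at a root mean square distance of 19.1 and 19.9 points, where the median over 6359 promoters was 44.9. Their mean levels still differed from those of SFRP1. SP8 averaged 35.8% in OCI-AML3 and 52.8% in AML5, and HS3ST4 14.2% and 57.7%.

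SFRP2, a second secreted Wnt-binding protein, lies at chr4:154701743-154710235 on the minus strand. Its promoter averaged 30.5% ± 36.2 (190 CpG dinucleotides) in OCI-AML3 against 40.8% ± 30.4 in AML5, with 62 called lower and 21 higher. Around the TSS the difference was wider, 6.23% against 25.6% within 500 bp. A stretch of 14 CpG dinucleotides in exon 1 (chr4:154709790-154709989) was at 1.09% and 44.5%. The 8 lower CpG dinucleotides printed in the upstream sequence formed another stretch, from -195 to -119 bp, at 1.06% and 55.7%. On its 5′ side, past the 2 CpG dinucleotides that were not called, the 4 higher ones from -274 to -256 bp were at 75.9% and 27.3%. Beyond these, 3 lower ones from -329 to -313 bp were at 2.22% and 43.3%. Farther upstream, between -1500 and -1001 bp, the 2 bins of 250 bp were higher in OCI-AML3, at 96.8% against 83.1% and 90.3% against 73.6%. The bins from -1000 to -501 bp were at 58.7% and 33.2% in OCI-AML3 and 59.4% and 34.4% in AML5. The farthest bin, from -2000 to -1751 bp, was lower in OCI-AML3 again, at 21.3% and 33.0%, and included a stretch of 4 lower CpG dinucleotides at 4.17% and 54.3%. Near the TSS AML5 also had a minimum, 10.3% from 0 to 249 bp, between bins at 42.4% and 39.2%, where OCI-AML3 was at 1.07%. The SFRP2 promoter thus alternated between lower, higher and like levels along its length.

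SFRP4 was close to unmethylated in both lines at its canonical TSS (chr7:37945534-38065297 for the whole gene, minus strand). The window averaged 9.58% ± 18.0 (113 CpG dinucleotides) and 7.86% ± 19.4, with 7 called lower and 15 higher. The higher calls included a stretch of 4 in exon 1 (chr7:37955957-37955991) at 30.6% in OCI-AML3 and 1.01% in AML5. A stretch of 4 nearer the TSS (chr7:37956296-37956309) was at 0.543% and 23.2%. No CpG between -750 and -1 bp was called. Far upstream of this TSS but still inside the annotated gene, 5 CpG dinucleotides (chr7:38059746-38059881) were at 4.24% in OCI-AML3 and 88.5% in AML5.

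SFRP5 (chr10:99526508-99531756, minus strand) went in the other direction. Its promoter averaged 35.3% ± 26.7 (163 CpG dinucleotides) in OCI-AML3 against 26.3% ± 28.6 in AML5, with 19 called lower and 47 higher. Within 500 bp the means were 29.7% and 16.7%, with 5 lower and 29 higher. Higher stretches lay in exon 1, where 8 CpG dinucleotides (chr10:99531342-99531439) were at 45.2% and 7.20% and 6 close to the TSS (chr10:99531693-99531708) at 66.9% and 11.3%. Between these 2, also in exon 1, 3 CpG dinucleotides from 96 to 113 bp were lower, at 11.6% and 62.0%. Intron 1 held both directions as well. From 832 to 862 bp, 4 CpG dinucleotides were at 51.4% and 2.38%, and from 932 to 1020 bp, 3 were at 65.0% and 10.0%, whereas 9 farther in (chr10:99529952-99530192) were lower, at 26.2% and 72.1%. Of the 4 SFRP genes, SFRP1 and SFRP2 were therefore less methylated around the TSS in OCI-AML3, and SFRP5 more.

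WIF1, the Wnt inhibitory factor, lies at chr12:65444406-65515085 on the minus strand. It had the highest promoter level of the 9 in AML5 and the second highest in OCI-AML3, 55.0% ± 35.6 (133 CpG dinucleotides) in OCI-AML3 against 57.9% ± 37.6 in AML5. Among CpG-rich promoters 11.3% were higher in OCI-AML3 and 11.8% in AML5. Of its CpG dinucleotides 16 were called lower and 9 higher. Both profiles were high upstream and lower around the TSS, but they parted in some bins. From -1500 to -1251 bp, 6 CpG dinucleotides averaged 69.7% in OCI-AML3 and 96.7% in AML5. From 250 to 499 bp, 4 averaged 39.6% and 73.5%. From -1250 to -501 bp the bins were at 91.3 to 92.5% in OCI-AML3 and 94.0 to 96.1% in AML5, and within 500 bp of the TSS the mean was 29.9% and 28.5%. A stretch of 3 CpG dinucleotides in exon 1 (chr12:65515009-65515022) was higher in OCI-AML3, at 69.4% against 17.9%. Another 3, from -1357 to -1306 bp, were lower, at 45.8% and 95.7%.

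Among the Dickkopf genes, DKK1, an inhibitor of LRP5 and LRP6 (chr10:54074041-54077802, plus strand), had the smallest difference in promoter mean. Its promoter averaged 26.2% ± 25.7 (122 CpG dinucleotides) in OCI-AML3 against 23.1% ± 28.7 in AML5, with 10 called lower and 17 higher. Upstream, 5 CpG dinucleotides from -834 to -802 bp were at 36.8% and 2.35%. In exon 2, 5 others (chr10:54074731-54074761) were at 12.6% and 64.4%.

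DKK2, which also binds LRP5 and LRP6 (chr4:107842959-108204963, minus strand), was the least methylated promoter in OCI-AML3. All 143 tested CpG dinucleotides were below 20% there, with a mean of 0.69% ± 2.14, whereas AML5 averaged 8.48% ± 19.5 with 86.0% of them below 20%. Within 500 bp of the TSS 0.104% of 1914 calls were methylated in OCI-AML3 (Wilson 95% interval 0.0287 to 0.380%) and 0.0625% of 1599 in AML5 (0.0110 to 0.353%). Differences therefore lay away from the TSS. A stretch of 12 CpG dinucleotides from -1380 to -1049 bp (chr4:107958519-107958850) was at 3.10% in OCI-AML3 and 60.6% in AML5. Downstream, the bins from 750 to 1499 bp were at 0 to 0.321% and at 10.5 to 14.2%. In all, 19 CpG dinucleotides were called lower and 0 higher.

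DKK3, a divergent Dickkopf family member (chr11:11977754-12031316, minus strand), had the largest increase. Its promoter averaged 57.7% ± 27.6 (176 CpG dinucleotides) in OCI-AML3 against 43.0% ± 32.7 in AML5, with 4 called lower and 44 higher. Within 500 bp the means were 53.1% and 26.3%, with 1 of 86 called lower and 39 higher. Exon 1 (chr11:12029917-12030173) stood at 58.5% and 23.9%, with 0 of 28 called lower and 19 higher. Stretches of 6 CpG dinucleotides in that exon were at 61.8% and 16.9% (chr11:12030123-12030154) and at 76.8% and 23.3% (chr11:12029927-12029976). Among CpG-rich promoters 3.20% had a more positive difference. The mean difference depended on the window: a window of 1000 bp each way from the most upstream TSS gave 4.78 points, and the 2 kb upstream of it -1.93 points.

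SOX17 lies at chr8:55370495-55373452 on the plus strand. It was higher in OCI-AML3 on average, 40.9% ± 28.7 (254 CpG dinucleotides) against 35.8% ± 21.6, yet 54 CpG dinucleotides were called lower and 69 higher. The 2 directions were only partly separated along the gene, and the bin from -250 to -1 bp held 6 lower and 7 higher calls. In intron 1, 24 were called lower and 3 higher, with means of 26.7% in OCI-AML3 and 43.0% in AML5, and a stretch of 9 (chr8:55371014-55371054) was at 9.28% and 37.3%. In exon 2, 9 were called lower and 45 higher, with means of 51.8% and 34.2%, and a stretch of 13 (chr8:55372174-55372238) was at 76.1% and 24%. Between -500 and -251 bp of the TSS the levels were again higher in OCI-AML3, at 70.4% and 42.9%. With only 1000 bp on either side the mean difference was -7.98 points, and by the share of all calls in the full window it was 1.36 points.

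Over the canonical promoters together, 342 CpG dinucleotides (22.6%) were called lower in OCI-AML3 and 227 (15%) higher, and 946 were not called. Over all promoters at the canonical TSS 13.1% of CpG dinucleotides were lower and 5.15% higher. In the windows at the most upstream TSS the members had 321 lower (25.2%) and 212 higher (16.7%) of 1273, beside 13.1% and 5.1% of all promoters, and 14.7% and 3.86% of all nuclear CpG dinucleotides. SFRP1 alone gave 151 of the 342 lower calls. Its share of lower calls was 68.3%, that of SFRP2 32.6% and that of SOX17 21.3%, whereas the other 6 had 2.27 to 13.3%. Shares of higher calls were 28.8% in SFRP5, 27.2% in SOX17 and 25% in DKK3, and 0 to 13.9% in the rest. A stretch of at least 3 consecutive lower calls, no more than 300 bp apart, was found in the promoters of 8 members, all but DKK3, and 62.6% of all promoters had such a stretch. A higher stretch was found in 7, all but SFRP1 and DKK2, beside 19.8% of all promoters.

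Intermediate levels were common. Of the promoter CpG dinucleotides of the 9 genes, 38.9% in OCI-AML3 and 44.5% in AML5 lay between 20 and 80%, where 15.1% and 16.1% of those of all canonical promoters did. The SFRP1 promoter had 70.1% of its CpG dinucleotides in that range in AML5 and 43.9% in OCI-AML3, where 54.8% were below 20%. SOX17 had 57.1% in OCI-AML3 and 71.3% in AML5, and DKK3 63.1% and 46.6%. Whether such levels mix cells or alleles of different state was not tested. CpG dinucleotides were also split by local density, with dense ones having at least 10 CpG dinucleotides within 100 bp on either side, itself included. At dense sites SFRP1 was at 19.8% and 58.7%, SFRP2 at 13.6% and 31.6%, SFRP5 at 33.4% and 18.1%, and DKK3 at 49.8% and 29.3%. At sparse sites the differences were -7.36 points for SFRP1, 7.10 for SFRP2, -10.2 for SFRP5 and 0.661 for DKK3. Over all canonical promoters they were -2.62 points at dense and -9.35 points at sparse sites.

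Gene bodies were taken as the rest of the gene outside the window at the most upstream TSS. The bodies of SFRP4 and DKK2 therefore included the canonical promoter windows described above, and that of DKK3 a part of its window. Levels were high in most of them, and 8 of 9 were lower in OCI-AML3, where 92.9% of all 18293 gene bodies were lower with a median of -4.92 points. WIF1 had the largest decrease, 60.4% against 83.7% over 309 CpG dinucleotides, with 91 called lower and 2 higher. It was the only body past 20 points, a decrease that 7.59% of all gene bodies had, and 0 of the 9 were higher by that much, as 0.541% of all were. In intron 2 of WIF1 the means were 62.7% and 86.2%, with 52 of 171 called lower and 0 higher. SFRP1 was the exception to the direction, at 72.6% and 60.6% over 596 CpG dinucleotides, with 38 called lower and 166 higher. Its difference of 12.0 points was exceeded by 1.36% of gene bodies. In intron 2 of SFRP1 the means were 76.4% and 63.0%, with 27 of 481 called lower and 147 higher. The other bodies with over 100 CpG dinucleotides were DKK2 at 76.8% and 83.2%, DKK3 at 79.1% and 86.5%, and SFRP4 at 64.9% and 69.9%. SFRP2 stood at 71.1% and 82.8% and SFRP5 at 82.9% and 88.8%. Counted as the share of all calls in place of the mean over CpG dinucleotides, the difference was -12.9 points for SFRP4, against -4.98, and -5.78 points for SFRP2, against -11.7. DKK1 and SOX17 left only 10 tested CpG dinucleotides each, with 70.03% and 86.3% for DKK1 and 18.0% and 35.8% for SOX17. Together the bodies had 427 CpG dinucleotides called lower (10.7%) and 213 called higher (5.35%) of 3984, beside 13.1% and 3% in all gene bodies. SFRP1 alone gave 166 of the 213 higher calls, and WIF1 91 of the 427 lower calls. With the canonical windows left out of the bodies, 401 were called lower and 198 higher.

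The opposite directions of the SFRP1 and WIF1 bodies ran along most of their length, whereas both promoter means were lower in OCI-AML3. Beyond 2 kb from the TSS, 41 of the 45 bins of 1 kb in SFRP1 were higher in OCI-AML3 and 4 lower, with bin means of 29.4 to 92.9% in OCI-AML3 and 29.7 to 86.7% in AML5. All 48 such bins in WIF1 were lower. In the 50 kb on either side of the genes the means were 68.6% and 60.7% around SFRP1, with 93 of 955 called lower (9.74%) and 214 higher (22.4%), beside 14.7% and 3.86% of all nuclear CpG dinucleotides, and 49.5% and 63.1% around WIF1. More positive differences than that of SFRP1 were found in 1.02% of the flanks of 20101 genes, of which 96.5% were lower in OCI-AML3 with a median of -6.89 points. The other 7 flanks were also lower in OCI-AML3, with the largest decrease around DKK1, from 69.2% in AML5 to 45.7% in OCI-AML3. SFRP1 was thus lower in OCI-AML3 at its promoter and higher in its body and flanks, where the other 8 genes had lower flanks and bodies. SFRP4, SFRP5, DKK1, DKK3 and SOX17 had the reverse signs, with higher promoter means and lower body means. The promoter differences of SFRP4 and DKK1 were only 1.72 and 3.17 points, and 92.9% of all gene bodies were lower. For SFRP4, SFRP5, DKK3 and SOX17 the sign of the promoter or body difference changed with the window, as given below.

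The rest of the Wnt pathway was read in the windows at the most upstream TSS, where 8.61% of all promoters were lower by over 20 points and 1.79% higher. Of 14 other secreted or membrane antagonists, 1 was lower in OCI-AML3 by over 20 points, CER1, which encodes a secreted antagonist of Nodal, BMP and Wnt, at 39.5% against 75%. At the canonical TSS SOSTDC1, which encodes a secreted antagonist of BMP and Wnt, passed as well, at 57.6% against 81%. The median difference of that list was -6.62 points. Of 17 intracellular antagonists 1 was lower, TLE1, a corepressor of TCF factors, at 7.68% against 47.2%, and 1 was higher, NKD2, which binds Dishevelled, at 52.4% against 20.2%. Of 19 Wnt ligands, WNT10A was lower (36.4% and 56.7%) and WNT2 (63.5% and 30.2%) and WNT7A (49.3% and 25.9%) were higher. Of 15 receptors, FZD5 was lower (17.9% and 44.2%) and FZD8 higher (54.4% and 32.2%). RSPO2, an R-spondin that strengthens Wnt signalling, was lower (14.6% and 39.1%) among 7 R-spondin and LGR genes, and 0 of 12 signal transducers passed 20 points in either direction. With lists of this size, the counts of lower genes were near the share over all promoters. Where a list held a higher gene, the share exceeded 1.79%, as any single gene does in lists this short. The medians of the remaining lists were -1.72 points for intracellular antagonists, -6.79 for ligands, 2.13 for receptors, -2.57 for R-spondins and LGR genes and -5.29 for transducers, beside 0.305 for the 8 members tested and -4.68 for all promoters.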

How the data were processed

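The authors sequenced paired-end bisulfite libraries, aligned reads to hg19 with Bismark and Bowtie 0.12.8, and deposited, for each CpG dinucleotide, the counts of its methylated and unmethylated calls, without smoothing or normalization, with both strands added. Whether duplicate reads were removed is not given in the sources used here. The methylated column was settled from the mitochondrial genome, where 0.168% (OCI-AML3) and 0.101% (AML5) of calls were methylated. The listed position was the G of the CpG at 99.8% of nuclear sites and was used as given.

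The level of a CpG was its methylated share of calls, used where each library had more than 5 reads, and means weigh every CpG equally. Each CpG was compared by Fisher's exact test, with Benjamini-Hochberg adjustment over all nuclear CpG dinucleotides at 0.05, implemented with numpy 2.4.6 and numba 0.67.0 and tested on simulated data against scipy 1.17.1. Consecutive calls in the same direction, with no uncalled tested CpG between them, gaps of at most 300 bp and at least 3 CpG dinucleotides formed a stretch. Genes came from a GENCODE release lifted to GRCh37, and sequences from the GRCh37 genome. The RefSeq promoter table held 5 of the 9 members. With 1 library per line, tests compare 2 libraries, and no test against the variation between cultures could be made.

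The members and lists were chosen with earlier results of these data known. All 9 members are named, and in each pathway list the gene with the largest decrease and the largest increase past 20 points. WNT7A and SOSTDC1 were named after their values were seen. Likeness was measured at the most upstream TSS, where the DKK3 profile had an empty bin, so no promoter was named as most like it. Windows at the canonical TSS were compared with those at the most upstream TSS. Alternatives covered the minimum reads, the promoter window, thresholds, the share of all calls and the whole gene. Calculations used Python 3.11.15, pandas 2.3.3, pysam 0.24.0 and matplotlib 3.10.9.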

Additional observations from a re-analysis of the deposited data

How the results depend on the processing

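The counts over the 9 genes moved by over 1.5 times in 7 of 42 comparisons with an alternative. With a threshold of 10 points in place of 20, 2 promoters were lower in OCI-AML3 and 1 was higher, against 1 and 0. With 1000 bp on either side of the TSS, 109 promoter CpG dinucleotides were called higher, against 212. With the 2000 bp upstream alone, 93 were called lower and 61 higher, against 321 and 212, since these windows hold fewer CpG dinucleotides. With the promoter window counted as part of the gene, 656 gene body CpG dinucleotides were called lower and 364 higher, against 427 and 213, since more were tested. Of 99 values for single genes, 60 moved by less than the counting interval, 34 moved by more with the same sign and 5 changed sign. The last were the SFRP4 promoter at 1.72 points at the canonical TSS (-2.56 at the most upstream), the SOX17 promoter at -7.98 points with 1000 bp on either side, the DKK3 promoter at -1.93 points with the upstream part alone, and the SFRP5 and SOX17 bodies at 5.18 and 2.93 points when the whole gene was taken. The cause was not tested. Leaving out the canonical window from the body as well, which was added after the data had been seen, gave -6.08 points for SFRP4 against -4.98. No paired analysis was possible because each line has 1 library, and for the same reason no replicate could be left out. Depth limits single CpG dinucleotides to the smallest levels given above, and duplicate reads would make the intervals too narrow.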
